A study of Homo sapiens with 2 samples.

Results

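The genes examined were BCL2, which encodes an inhibitor of apoptosis, and BCL2L11, PMAIP1 and BIK, which encode the pro-apoptotic BH3 proteins BIM, NOXA and BIK. They were chosen by name from a deposited list of TCF4 binding peaks, and every peak assigned to one of them was kept. These came to 21 of the 662 listed peaks, at 4 of 275 genes: 9 peaks of BCL2, 8 of PMAIP1, 3 of BCL2L11 and 1 of BIK. Binding of TCF4 (E2-2), a basic helix-loop-helix factor, was mapped by ChIP-seq, the sequencing of DNA precipitated with an antibody to a chromatin protein. The cells were SU-DHL-2, an established lymphoma line of the ABC type of DLBCL (diffuse large B-cell lymphoma), described by the submitters as having no copy number gain of TCF4. The line carried a tetracycline-inducible TCF4 transgene, and the cells of both libraries had received doxycycline at 60 ng/ml for 24 hours. The group labelled TCF4 ChIP was 1 library precipitated with an antibody to TCF4, and the input group was 1 library of whole-cell extract without antibody. Both therefore came from cells overexpressing TCF4, and cells at their own TCF4 level were not analysed here. No value has a replicate, so no test between libraries was made. Fold enrichment is the ratio of ChIP to input reads in a peak, scaled for the 2 libraries. Its intervals are at 95% and cover counting error only. The 21 peaks held 37 to 316 ChIP reads and 5 to 39 input reads each, and took 3.51% of the ChIP reads in the listed peaks, being 3.17% of those peaks.

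BCL2 family proteins decide whether the outer mitochondrial membrane is permeabilised, the step that releases cytochrome c and commits a cell to intrinsic apoptosis. Anti-apoptotic members such as BCL2 hold the pore-forming members and the BH3 proteins in check, and BH3 proteins release that block by binding in the groove of the anti-apoptotic members. BIM engages all anti-apoptotic members, and in mice it limits the number of B cells. NOXA binds MCL1 preferentially and is induced by p53 and by stress. BIK acts largely from the endoplasmic reticulum. High BCL2 protein is a frequent feature of diffuse large B-cell lymphoma. E proteins such as TCF4 recognise the E-box, written CANNTG.

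The sequences around the start sites are shown because only 1 of the 4 genes had a peak marked as promoter. RefSeq windows (build GRCh38.p14) were found for 3 of the 4 genes. Each runs from 250 bases before the start to 50 bases after it, written 5′ to 3′ on the gene's strand, with the transcribed bases in capitals. The BCL2 window is chr18:63319720-63320019 (minus strand), that of BCL2L11 is chr2:111120664-111120963 (plus strand) and that of PMAIP1 is chr18:59899746-59900045 (plus strand).
BCL2: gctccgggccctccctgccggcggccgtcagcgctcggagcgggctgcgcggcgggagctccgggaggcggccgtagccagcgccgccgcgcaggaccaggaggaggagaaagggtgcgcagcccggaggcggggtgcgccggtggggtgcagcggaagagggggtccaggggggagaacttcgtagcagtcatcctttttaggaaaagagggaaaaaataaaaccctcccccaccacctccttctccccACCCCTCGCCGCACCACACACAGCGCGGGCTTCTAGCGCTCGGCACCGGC
BCL2L11: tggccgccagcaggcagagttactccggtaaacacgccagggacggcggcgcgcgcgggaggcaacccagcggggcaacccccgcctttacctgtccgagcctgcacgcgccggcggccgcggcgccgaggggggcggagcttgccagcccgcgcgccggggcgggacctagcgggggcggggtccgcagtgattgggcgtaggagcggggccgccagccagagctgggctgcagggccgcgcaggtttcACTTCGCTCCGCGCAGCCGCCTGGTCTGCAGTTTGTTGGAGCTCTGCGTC
PMAIP1: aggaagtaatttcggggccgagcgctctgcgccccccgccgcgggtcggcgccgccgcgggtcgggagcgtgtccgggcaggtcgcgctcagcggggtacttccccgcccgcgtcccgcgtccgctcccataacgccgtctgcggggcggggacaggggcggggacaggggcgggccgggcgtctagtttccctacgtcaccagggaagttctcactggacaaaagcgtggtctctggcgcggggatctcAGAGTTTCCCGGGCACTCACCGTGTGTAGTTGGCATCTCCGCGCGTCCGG
None of the 3 windows held a CANNTG, a motif that reads as CANNTG on both strands. Of the 35116 RefSeq windows of the same length, 24117, 68.7%, held at least 1. All 3 windows were rich in G and C, at 70.7% for BCL2, 74.7% for BCL2L11 and 71.3% for PMAIP1. The authors' distances refer to hg19, and their start sites were not matched to those of the windows. By these distances, no listed peak of the 4 genes came closer to its start site than 0.752 kb. That value is the near edge of a peak inside BCL2. The windows thus say nothing of motifs in the listed peaks, whose sequences were not read.

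Anti-apoptotic BCL2 and pro-apoptotic PMAIP1 carried similar numbers of peaks, placed differently against the transcript. The longest assigned transcript was 196 kb at BCL2 and 4.35 kb at PMAIP1, and the positions were not adjusted for this length. Of the 9 BCL2 peaks, 7 lay within the assigned transcript, 2 lay downstream of it and 0 lay upstream. Of the 8 PMAIP1 peaks, 0 lay within the transcript, 6 lay upstream and 2 downstream. BCL2L11 had 1 peak within and 2 downstream, and the only BIK peak was within the gene. Of all listed peaks, 52.0% were within the assigned transcript, 23.4% upstream and 24.6% downstream. All 6 upstream peaks of the 4 genes thus belonged to PMAIP1. All 4 genes were marked Up in the TCF4 signature that defines the table, as were 83.3% of listed genes. The file does not say to what Up is relative.

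**Figure D1:**
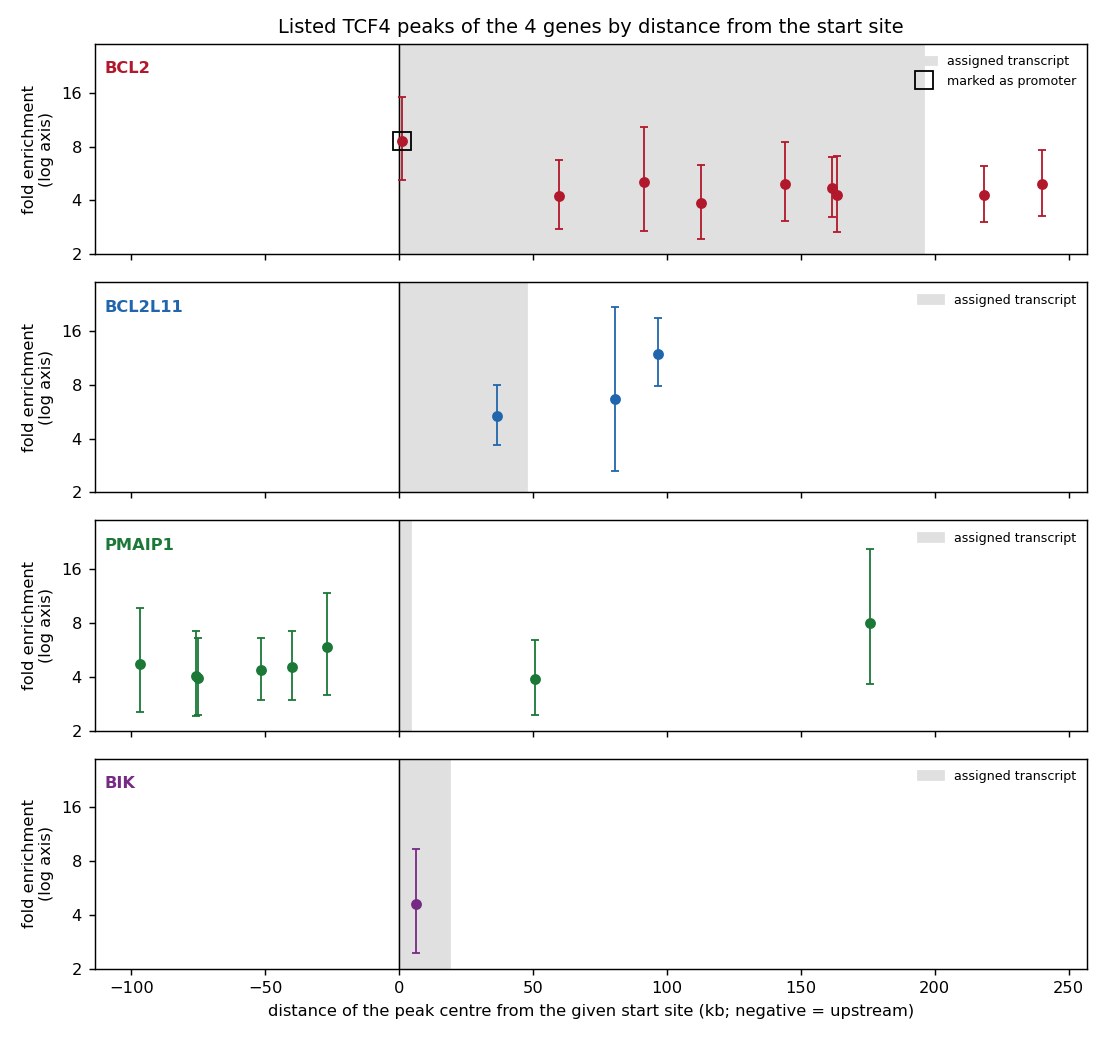
Listed TCF4 peaks of BCL2, BCL2L11, PMAIP1 and BIK. The horizontal axis gives the distance of the peak centre from the given start site in kb (negative is upstream) and the vertical axis the fold enrichment of ChIP over input on a log axis, with bars for the 95% counting interval; the grey band is the assigned transcript and the square the peak marked as promoter. BCL2 peaks fill the transcript and its downstream side, while the 8 PMAIP1 peaks flank a transcript of 4.35 kb.

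The anti-apoptotic gene, BCL2, lies on chromosome 18, and its 9 peaks covered a stretch of 240 kb (hg19). The peak nearest to the start was at 60985202 to 60985861, with its centre 1.08 kb into the gene. It held 162 ChIP reads and 17 input reads, an enrichment of 8.6-fold (interval 5.21 to 15.1). It was the only one of the 21 peaks marked as promoter, against 5.44% of all listed peaks, and 13.1% of listed genes had such a peak. The authors gave this mark up to 1.99 kb from the start. The authors assigned it to NM_000657, a transcript of 1.43 kb, and the peak lay wholly inside that transcript, its centre 0.346 kb from the transcript's end. The other 8 BCL2 peaks were assigned to NM_000633, a transcript of 196 kb that begins at the same base.

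The next BCL2 peak was 59.7 kb into the gene, at 60926512 to 60927351, with 122 ChIP and 26 input reads. A peak at 91.4 kb, at 60895030 to 60895404, held 67 ChIP and 12 input reads, the fewest of the gene in the ChIP library. At 113 kb, the peak at 60873660 to 60874048 held 98 ChIP and 23 input reads, and its 3.85-fold enrichment (2.42 to 6.35) was the lowest of the 21. These 3 intragenic sites lay between 3.85-fold and 5.04-fold. Towards the end of the transcript, a peak at 144 kb (60842484 to 60842945) held 110 ChIP and 20 input reads. A pair of peaks followed at 162 kb and 164 kb, 1.48 kb apart edge to edge. The first of the pair, at 60824626 to 60825404, held 177 ChIP and 34 input reads, and the second, at 60822739 to 60823148, held 104 and 22. This pair was the closest spacing in BCL2, where the other gaps ran from 17.1 kb to 57.9 kb.

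Downstream of BCL2, the peak at 60767721 to 60768732 lay 22.4 kb past the transcript's end, with 186 ChIP and 39 input reads, the most of the gene in both libraries. The last peak, at 60746244 to 60746659, lay 44.1 kb past the end, with 153 ChIP and 28 input reads. The 8 peaks away from the start reached 3.85-fold to 5.04-fold, and every one of their intervals overlapped every other. With reads summed, these 8 were enriched 4.5-fold (3.87 to 5.26), and the promoter peak exceeded them by 1.91 times (interval 1.13 to 3.44). That interval leaves out the fact that the peak was singled out with its value known. The distance from the start exceeded 100 kb at 6 of the 9 BCL2 peaks and at 20.4% of listed peaks.

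**Figure D2:**
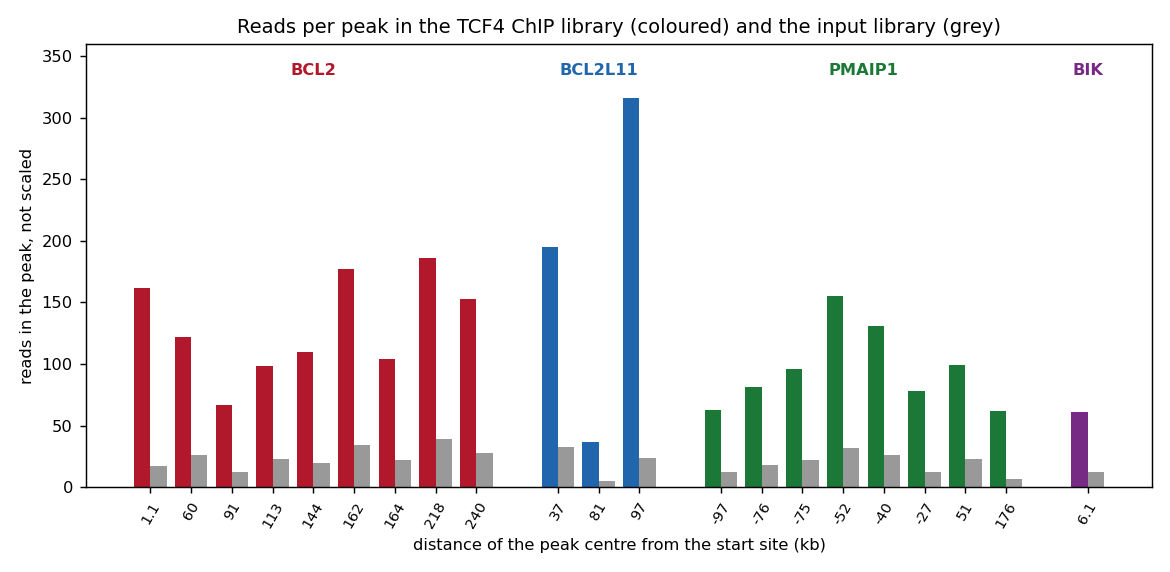
Reads in each of the 21 peaks in the TCF4 ChIP library (coloured bars) and the input library (grey bars), not scaled for library size, with peaks ordered by distance from the start site in kb. The BCL2L11 peak at 97 kb holds the most ChIP reads, 316, and its neighbour at 81 kb the fewest, 37.

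Among the BH3 genes, PMAIP1 had the most peaks. It also lies on chromosome 18, and its peaks covered 273 kb around a transcript of only 4.35 kb (NM_021127). The 6 upstream peaks began 96.9 kb before the start, at 57470101 to 57470478, with 63 ChIP and 12 input reads. A close pair stood at 57491009 to 57491383, with 81 ChIP and 18 input reads, and at 57491899 to 57492384, with 96 and 22. Only 0.516 kb separated this pair, the single gap under 1 kb among the 4 genes. The peak with the most reads of PMAIP1 was 51.6 kb upstream, at 57515337 to 57515750, with 155 ChIP and 32 input reads. Its input signal of 0.918 ranked 11 among the 662 listed peaks, and its enrichment was 4.37-fold (2.97 to 6.61) at a ChIP signal of 4.02. Both signals are the authors' reads per width and library constant.

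Nearer to the gene, the peak at 57526816 to 57527640 lay 40 kb upstream with 131 ChIP and 26 input reads. The closest PMAIP1 peak to the start, 26.8 kb upstream at 57540166 to 57540574, held 78 ChIP and 12 input reads and was enriched 5.87-fold (3.18 to 11.8). No PMAIP1 peak was therefore near its promoter. On the downstream side, a peak 50.8 kb from the start, at 57617749 to 57618183, held 99 ChIP and 23 input reads. The farthest, 176 kb from the start at 57742906 to 57743273, held 62 ChIP and only 7 input reads. This last peak had the highest enrichment of the gene, 7.99-fold, with a wide interval of 3.66 to 20.7 that overlaps those of the other 7, which ran from 3.89-fold to 5.87-fold. Upstream and downstream peaks, with reads summed, differed by 1.08 times (downstream over upstream, interval 0.692 to 1.74).

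BCL2L11, on chromosome 2, had fewer peaks and the strongest single site. Its peak at 111914506 to 111915715, 36.6 kb into a transcript of 47.5 kb (NM_207003), was 1209 bp wide with 195 ChIP and 33 input reads, an enrichment of 5.33-fold (3.67 to 7.97). The peak at 111958941 to 111959208, 33.1 kb past the transcript's end, was 267 bp wide with 37 ChIP and 5 input reads, which gave 6.68-fold with an interval of 2.62 to 21.8. These were the widest and the narrowest of the 21 peaks. The third peak, at 111974664 to 111975426 and 49 kb past the end, held 316 ChIP and 24 input reads. Its enrichment of 11.9-fold (7.84 to 18.8) was the highest of the 4 genes and ranked 19 of 662 by the authors' scaled log2 ratio, which was 3.52. It exceeded the other BCL2L11 peaks together by 2.16 times (interval 1.22 to 3.87) and the BCL2 promoter peak by 1.38 times (0.675 to 2.77). The first difference is larger than counting error, for a peak singled out with its value known, and the second is not.

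BIK, on chromosome 22, had 1 peak, like 38.5% of listed genes. It lay at 43512651 to 43513040, 6.09 kb into a transcript of 19 kb (NM_001197), and was 389 bp wide. It held 61 ChIP and 12 input reads, an enrichment of 4.59-fold (2.45 to 9.36), and ranked 450 of 662 by the scaled log2 ratio. After the BCL2 promoter peak it was the site nearest to a start among the 21.

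Set against each other, the BH3 genes together had 12 peaks and BCL2 had 9, so 1 anti-apoptotic gene held 9 of the 21 sites. The 12 BH3 peaks held 1374 ChIP and 226 input reads, and the 9 BCL2 peaks held 1179 and 221. The summed enrichment was 5.49-fold (4.76 to 6.34) at the BH3 genes and 4.82-fold (4.17 to 5.58) at BCL2. Their ratio, BH3 over BCL2, was 1.14 with an interval of 0.927 to 1.4, a difference within counting error. The BH3 genes differed among themselves. BCL2L11 was enriched 7.98-fold (6.13 to 10.5), 1.66 times BCL2 (1.22 to 2.27). Without its peak of 316 reads, BCL2L11 was enriched 5.51-fold, 1.14 times BCL2 (0.783 to 1.71), within counting error. That interval also holds 1.66, so whether the excess rested on this peak cannot be told. BCL2 kept its promoter peak in that ratio, and its other 8 peaks were enriched 4.5-fold. PMAIP1 was enriched 4.54-fold (3.81 to 5.44), 0.943 times BCL2 (0.749 to 1.19). BIK stood at 0.953 times BCL2 with a wide interval (0.498 to 1.98). Without BCL2L11 the ratio of BH3 genes to BCL2 fell below 1, to 0.944 (0.753 to 1.19), and without the single BCL2L11 peak of 316 reads it was 0.982 (0.793 to 1.22). Without PMAIP1 it was 1.54 (1.16 to 2.07).

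In order of summed enrichment, BCL2L11 stood first, followed by BCL2, BIK and PMAIP1. The intervals of the last 3 overlapped, and that of BIK (2.45 to 9.36) also overlapped that of BCL2L11 (6.13 to 10.5). No ratio of BCL2L11 to BIK was computed. BCL2L11 exceeded both PMAIP1, by 1.76 times (1.27 to 2.45), and BCL2 beyond counting error. Without its peak of 316 reads the ratio to PMAIP1 was 1.21 (0.818 to 1.83), a difference within counting error, though the interval holds 1.76. The input differed between them as well. Over the peaks of each gene, the ChIP signal was 2.62 (2.4 to 2.85) at BCL2L11, 2.36 (2.23 to 2.5) at BCL2 and 2.22 (2.07 to 2.39) at PMAIP1. The input signal was 0.328 (0.252 to 0.421), 0.491 (0.428 to 0.56) and 0.489 (0.415 to 0.574) in the same order. The higher enrichment of BCL2L11 over all its peaks thus came with a lower input, and the part of the input in it was not tested.

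**Figure D3:**
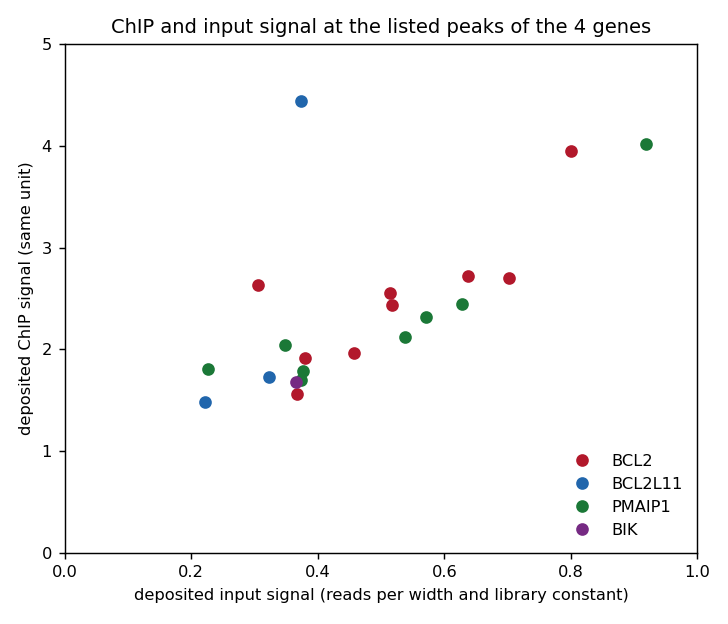
Deposited ChIP signal (vertical axis) against deposited input signal (horizontal axis), both in reads per peak width and library constant, for the 21 peaks of the 4 genes. The BCL2L11 peak with a ChIP signal of 4.44 sits at an input signal of 0.373, whereas the highest PMAIP1 peak, at 4.02, has an input signal of 0.918.

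By the median, BCL2 peaks were also the farthest from the start site. The median distance to the start site was 144 kb at BCL2, 80.6 kb at BCL2L11, 63.3 kb at PMAIP1 and 6.09 kb at BIK. It was 63.3 kb over the 12 BH3 peaks and 39.7 kb over all 662 peaks. Only 1 of the 12 BH3 peaks, the farthest of PMAIP1, lay over 100 kb away. Within the transcript lay 2 of the 12 BH3 peaks, 16.7%, and 7 of the 9 BCL2 peaks, 77.8%. The transcripts differ in length, 196 kb for BCL2 against 4.35 kb to 47.5 kb for the BH3 genes. Neither the distances nor these shares were adjusted for it.

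In number of peaks, BCL2 and PMAIP1 stood near the top of the table, ranking 3 and 5 with ties. They were 2 of only 8 genes with 8 or more peaks, 2.91% of listed genes. The other 6 were FOXP1, NEDD4L, TRAK1, FAM49A, SYK and XPNPEP1. Each of these 6 had between 1 and 10 peaks within its transcript, and their transcripts were 58.8 kb to 589 kb long. PMAIP1 had none, as did 31.6% of listed genes, and among those 87 genes the next highest number of peaks was 5, at DDX18. Of the 37 genes whose transcript was up to 10 kb, the 36 other than PMAIP1 had 1 to 3 peaks. Joining peaks under 1 kb apart left PMAIP1 with 7 peaks and BCL2 with 9.

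**Figure D4:**
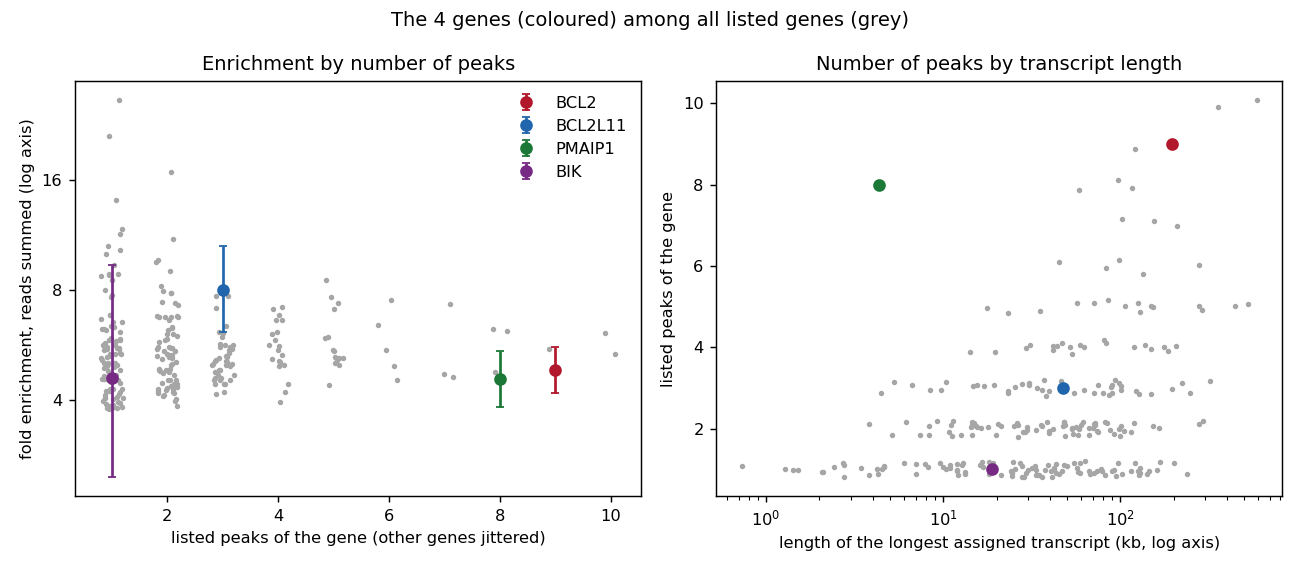
The 4 genes (coloured) among the 275 listed genes (grey, shifted at random by up to 0.2 peaks). On the left, fold enrichment from reads summed over the gene's peaks (log axis, bars for the 95% counting interval of the 4 genes) against the number of peaks; on the right, the number of peaks against the length of the longest assigned transcript in kb (log axis), where PMAIP1 stands alone with 8 peaks at 4.35 kb.

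High peak number did not come with high enrichment at these 2 genes. By summed enrichment BCL2 ranked 185 and PMAIP1 211 of 275 genes, BIK 203 and BCL2L11 24. On chromosome 18 BCL2 ranked 22 and PMAIP1 25 of 37 listed genes. They stood at 0.798 times (0.681 to 0.937) and 0.753 times (0.625 to 0.911) the other 35 genes together, whose peaks were enriched 6.04-fold (5.68 to 6.42). Those other genes had an input signal of 0.373 (0.352 to 0.395), below that of BCL2 and PMAIP1, while their ChIP signal of 2.25 lay between those of the same genes. These intervals do not include the variation between genes. BCL2L11 ranked 1 of 9 genes on chromosome 2. Its interval (6.13 to 10.5) overlapped that of DDX18, which ranked 2 there at 7.65-fold (4.95 to 12.4). Without its peak of 316 reads, BCL2L11 was enriched 5.51-fold, below DDX18. Of the 21 peaks, 8 lay above the median scaled log2 ratio of the table, 38.1%, against 49.7% of listed peaks. They were 3 of 3 at BCL2L11, 3 of 9 at BCL2, 2 of 8 at PMAIP1 and 0 of 1 at BIK. The authors' local −log10 p, which sets a peak against its surroundings, was 3 or more at 16 of the 21 peaks and at 81.3% of listed peaks. It was lowest, at 2.16, at 2 of the upstream PMAIP1 peaks, and highest, at 6.02, at the last BCL2 and the last BCL2L11 peak.

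No peak of another listed gene fell inside the stretches covered by the BCL2, BCL2L11 or PMAIP1 peaks or the BIK peak. The nearest were peaks of VPS4B, 85.2 kb beyond the BCL2 promoter peak, and of ZCCHC2, 494 kb beyond the other end. For PMAIP1 they were those of ZNF532 at 856 kb and ZCCHC2 at 2508 kb. In the RefSeq gene order the protein-coding neighbours are PHLPP1 and KDSR for BCL2, CCBE1 and MC4R for PMAIP1, ACOXL and LOC124907867 for BCL2L11, and TTLL1 and MCAT for BIK. None of these 8 had a listed peak under its current symbol, and a gene listed under another name would be missed. The table holds only peaks given to signature genes, so an intergenic site was assigned to 1 gene and its distance to others was not measured.

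The genes most like each member, among those with at most 1 peak more or fewer and by the smallest difference in log2 summed enrichment, were as follows. For BCL2 they were FAM49A with 8 peaks and 4.77-fold, and PMAIP1 itself. PMAIP1 was closest to BCL11A and ALCAM, each with 7 peaks, at 4.6-fold and 4.7-fold. BCL2L11 was closest to NCAPG2 and CHFR, each with 2 peaks, and BIK to UCP2 and SMC4, each with 1. For BCL2L11 and BIK there were 137 and 179 candidates, so a close match there says little.

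Of 49 pathway genes looked up, the 4 members among them, 6 had a listed peak. By current symbol, 1.31% of RefSeq protein-coding genes had one, and since the lists were drawn up with the members known, nothing is read from the share. Besides BCL2, 0 of the other 5 anti-apoptotic family genes, which include MCL1, BCL2L1 and BCL2A1, had a listed peak. Of 8 BH3 genes 3 had one, and BBC3, BAD, BID, BMF and HRK had none. The 3 pore-forming genes BAX, BAK1 and BOK had 0. So did 14 genes of the apoptosome, caspases and their inhibitors, and 10 of the death receptor pathway. Among 8 regulators of BH3 genes, E2F1 and MYC had 1 peak each. The E2F1 peak, marked as promoter 1.02 kb from the start, held 281 ChIP and 27 input reads, 9.39-fold (6.32 to 14.5). The MYC peak was not marked as promoter, and its accession is that of a non-coding transcript. By the authors' positions it lay downstream of that transcript, 109 kb from that transcript's start. Its side of the protein-coding MYC transcript and its distance from it were not measured. It held 28 and 5 reads, 5.05-fold (1.93 to 16.8). A gene enters the table only as a signature gene with a peak, so the absence of a gene does not bear on binding near it.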

How the data were processed

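One TCF4 ChIP library and 1 input library were compared. For each peak the authors deposited the read count in both libraries; the column headed IC was taken as the input, the only other library. The deposited signal equals reads over peak width and 1 constant per library (93.5 and 84.4, in M reads if the unit is RPKM). The deposited log2 ratio is that of reads plus 1, and the scaled log2 ratio includes these constants. The deposited −log10 p-values are against a read distribution and against local surroundings. Distances, promoter marks and positions are also the authors'. BWA, GATK and hg19 are named in the submitters' processing notes; no source used here names the peak caller. Only peaks of signature genes are listed, with a log2 ratio of at least 2.01, so weaker sites are missing from every value.

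Fold enrichment is ChIP over input reads, scaled by the constants, with no pseudocount and an exact Clopper-Pearson interval. Ratios of folds carry exact conditional intervals and signals exact Poisson intervals. Reads are not independent molecules. The work used scipy 1.17.1, numpy 2.4.6 and pandas 2.3.3 under Python 3.11.15. Named genes were the 4 members, pathway genes with a peak, the nearest listed genes on either side and the 2 most alike per member; FOXP1, NEDD4L, TRAK1, SYK, XPNPEP1 and DDX18 were named after their values were seen. The members and lists were chosen with earlier results of these data known. Alternatives were another pseudocount, scaling, threshold, promoter window, merging of peaks and leaving out genes.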

Additional observations from a re-analysis of the deposited data

How the results depend on the processing

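All 42 alternative values of the folds of single peaks, with 1 read added or without library scaling, stayed inside their intervals, as did 23 of the 24 of genes or groups. The exception was the BH3 genes, at 4.66-fold as the median of the peaks. The ratio of BH3 genes to BCL2 was 0.993 with medians and 1.54 without PMAIP1. With the promoter window at 1 kb, BCL2 had 0 promoter peaks, a share of 0%, since its peak is centred 1.08 kb from the start. In the upper 50% of peaks by ChIP reads, PMAIP1 had 4 peaks, BIK 0 and the BH3 genes 6, while BCL2 had 8. BIK has no fold there. The ratio of BCL2L11 to BCL2 was 1.14 and that to PMAIP1 1.21 without the strongest BCL2L11 peak. Leaving out the BCL2 promoter peak or the strongest BCL2L11 peak, and counting genes with 8 or more merged peaks, were chosen after seeing the data. The latter gave 6 genes. No paired analysis was possible because each group has 1 library. At 5 to 39 input reads per peak, the input limits the precision of every fold.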
